A study of Mus musculus with 15 samples.

Results

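Molecular chaperones of the heat shock protein, J-protein and chaperonin families were followed in mouse left ventricle after the operation that the labels call TAC, which loads the heart with pressure. Members were the probe sets, other than array controls, whose single gene symbol in the platform annotation starts with Hspa, Hspb, Hspd, Hspe, Hsph, Hsp9 or Dnaj, names a Cct gene from Cct2 to Cct8, or is Tcp1 or Cryab. The rule found 81 of 12422 probe sets, which stood for 57 genes, and used no measured value. Total RNA of the left ventricle was measured on 15 one-colour oligonucleotide arrays: 3 female sham hearts, 6 male sham hearts, 3 female TAC hearts and 3 male TAC hearts. The labels call the controls sham controls and the others TAC operated animals. They give no strain, age, time after the operation or pooling, nor whether every heart is from its own animal. The p-values therefore rest on the spread among these samples, which may be technical.

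Chaperones bind unfolded or unstable proteins and keep them from aggregating. HSP70 proteins cycle on and off their clients with ATP, J-proteins deliver the clients and start that cycle, and HSP110 proteins and other exchange factors end it. HSP90 matures kinases and receptors, the ring-shaped TRiC chaperonin folds actin and tubulin, and mitochondria and the endoplasmic reticulum have sets of their own. Small heat shock proteins hold damaged proteins without ATP and are abundant in heart muscle, where they bind the sarcomere and desmin. Heat shock factors switch on the inducible members through heat shock elements, inverted repeats of GAA in their promoters.

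A value is the linear, arbitrary-unit intensity of a probe set, the group of short probes that reads 1 transcript. For tests values were floored at 20, log2 was taken, and probe sets were ranked by their mean, of which the top 60% (7453) were tested. Of the 81 members, 58 probe sets of 45 genes passed, and 45 of these 58 were above the floor on every array. No probe set passed for Cct4, Cct6b, Cct8, Dnajb1, Dnajb9, Dnajb11, Dnajc3, Dnajc4, Dnajc17, Hspa2, Hspa14 or Hspb1, whose levels therefore have no test here. The highest of all values of the 23 members that did not pass was 33.5, and 16 of them were below 20 on all arrays. A member that is bright in 1 group only can pass through that group, so counts over the members that passed are descriptions. Each gene is represented by its brightest tested probe set unless another is named, and levels of different probe sets cannot be compared with each other.

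The arrays differed in level, and the members followed. Array medians lay between 21.2 on female TAC 1 and 26.7 on female TAC 2. Relative to the group means, the median member was lowest on female TAC 1, at -0.22 on the log2 scale, where the median of all tested probe sets was -0.12. It was highest on female TAC 2 at 0.20, against 0.10 for all probe sets. Male sham 5 stood at 0.15 against 0.05. The tissue label was met by 6 tested markers of heart muscle cells, whose summed intensity was 23302 to 26901 in sham and 22274 to 27082 in TAC hearts. Of the 6, 1 had a higher estimate with TAC, and limma called 0 in the main comparison below. Ryr2 (log2 change -0.52 ± 0.13) and Myh6 (-0.32 ± 0.13, SE) were the 2 with an unadjusted p under 0.05, both lower. Nppa and Acta1, stress genes of hypertrophy, separated the operations: Nppa lay between 111 and 307 in sham and between 1045 and 2549 in TAC hearts. Of the 4 such genes looked at, limma called 3, all higher. The other, Nppb, overlapped, at 326 to 1228 in sham and 824 to 1923 in TAC hearts (adjusted p = 0.125 in limma).

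The main comparison asked whether chaperone transcripts differed with TAC, as the mean of the effect in females and the effect in males. No member passed. The small heat shock proteins Cryab and Hspb8 had the smallest p-values, with intensities 1.29-fold (95% interval 1.12 to 1.48) and 1.25-fold (95% interval 1.08 to 1.45) those of sham hearts. Hsp90aa1 had the largest estimate, 1.39-fold (95% interval 1.08 to 1.78), and the genes of the TRiC ring and of the mitochondrial set had small estimates below sham. limma with Benjamini-Hochberg adjustment called 0 of 58 member probe sets at an adjusted p under 0.05, where it called 24 of 7453 in all (0.322%). At an unadjusted p under 0.05 there were 6 members, 10.3% of those tested, against 560 probe sets (7.51%). The member count was 9 of 59 without female TAC 1, where 601 of 7453 probe sets met the rule. It was also 9 of 59 with quantile normalization, where 651 did, and with median centring, where 649 did. With array weights it was 12 of 58, where 963 did. The count was 4 of 58 without male sham 4, where 536 of 7453 met the rule. Without male TAC 5 it was 4 of 58, where 438 of 7453 did. All these member counts are small, and no excess of members over all probe sets is read from them. Of the 6, 5 were higher with TAC, where 2.86% of all probe sets met that rule, and 1 was lower, where 4.66% did. In no member were all 6 TAC arrays above all 9 sham arrays, or all below, which held for 0.255% and 0.161% of all tested probe sets. Of the 58, 29 had a change above 0 (50%), where 41.8% of all did. In whole tissue, fewer cells of a type and less RNA per cell cannot be told apart.

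**Figure D1:**
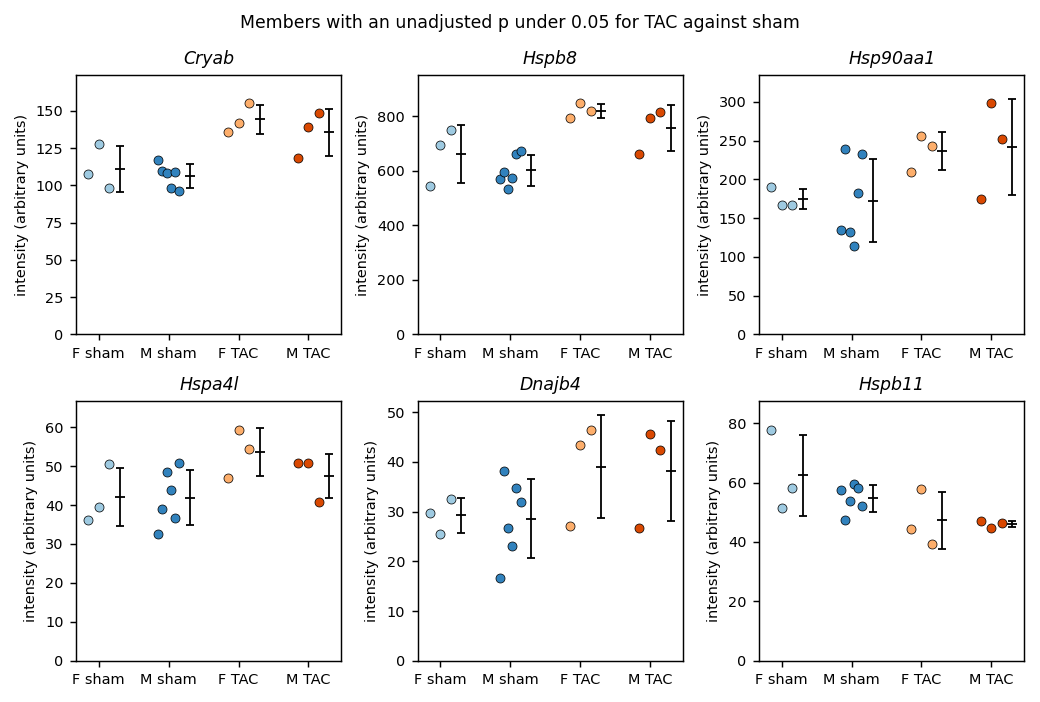
Intensity in arbitrary units (vertical axes start at 0) of the 6 members with an unadjusted p under 0.05, in female (F) and male (M) sham and TAC hearts. Points are arrays and bars are the mean ± SD of each group (n = 3, 6, 3 and 3). Cryab and Hspb8 lay above the highest sham array on 5 of 6 TAC arrays, and Hspb11 lay below the lowest sham array on 5 of 6.

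Cryab encodes alpha B-crystallin, the small heat shock protein that coats desmin and titin in heart muscle. Its intensity was 107, 128 and 98.1 in female sham hearts, and in the 6 male sham hearts it ran from 96.0 through a median of 109 to 117. Female TAC hearts had 136, 142 and 155, and male TAC hearts had 118, 140 and 149. Every TAC heart was above the sham median and 5 of 6 were above the highest sham heart, so the groups overlapped by 1 TAC array. The log2 change was 0.37 ± 0.10 (SE), with an unadjusted p of 0.00136 and an adjusted p of 0.174 in limma. Its spread within groups, an SD of 0.14 on the log2 scale, was at the 7.19th percentile of all tested probe sets. The name of the measured probe set carries the suffix that marks probes shared within a gene family. The other Cryab probe set was below 20 on all 15 arrays, so the value rests on 1 probe set.

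Hspb8 works with the co-chaperone Bag3 in sending damaged muscle proteins to autophagy. Its intensity was 545, 695 and 751 in female sham hearts and ran from 532 through 585 to 674 in male sham hearts. Female TAC hearts had 794, 847 and 819, and male TAC hearts had 662, 793 and 818. Male TAC 4 alone stayed inside the sham range, as it did for Cryab. The log2 change was 0.33 ± 0.10 (SE), with an unadjusted p of 0.00489 and an adjusted p of 0.320 in limma. A second Hspb8 probe set had a change of 0.30 ± 0.40 (SE) and the widest spread within groups of any member, from 16.7 to 64.0 in sham and from 17.4 to 159 in TAC hearts. Hspb2, whose gene model overlaps that of Cryab in the RefSeq annotation, was at 235 to 342 in sham and 273 to 376 in TAC hearts. Its change was 0.04 ± 0.10 (SE), and the groups overlapped over most of their range.

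Hsp90aa1, the stress-inducible cytosolic HSP90, was the sole HSP90 gene of the cytosol among the members. Its intensity was 190, 167 and 168 in female sham hearts and ran from 115 through 159 to 239 in male sham hearts. Female TAC hearts had 209, 257 and 243, and male TAC hearts 175, 298 and 252. All female TAC hearts were above all female sham hearts, while in males 1 TAC heart lay inside the sham range. The log2 change was 0.47 ± 0.17 (SE), with an unadjusted p of 0.0144 and an adjusted p of 0.470 in limma. Its second probe set was below 20 on 14 of 15 arrays.

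Among the HSP70 and HSP110 genes 7 of 9 were tested, of which 4 were higher and 3 lower, with a median log2 change of 0.06. The split was 6 and 1 with a median of 0.17 without female TAC 1, and 5 and 2 with 0.12 with median centring. Without male sham 5, when Hspa1b was no longer tested, it was 5 and 1 with 0.17. For all tested probe sets the median was -0.03 in the main fit and 0.0013 without female TAC 1. It was -0.02 without male sham 5 and 0.02 with median centring. Hspa4l, an HSP110 exchange factor, ran from 32.5 through 39.6 to 50.7 in sham hearts and from 40.8 through 50.7 to 59.3 in TAC hearts. All 6 TAC hearts were above the sham median, and 4 were above the highest sham heart. Its change was 0.27 ± 0.12 (SE; unadjusted p = 0.0397, adjusted p = 0.611 in limma). Hsph1, the inducible HSP110, had 0.22 ± 0.16, and Hspa8, the constitutive HSP70 that also uncoats clathrin vesicles, had 0.06 ± 0.16 (SE). Hspa4 had 5 tested probe sets, with changes from -0.10 for the brightest to 0.25, and none had an unadjusted p under 0.05. The brightest was at 0.17 without female TAC 1, so its sign rests on that array. Hspa1l, the HSP70 best known from testis, was near 0 (-0.0025 ± 0.12, SE).

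**Figure D2:**
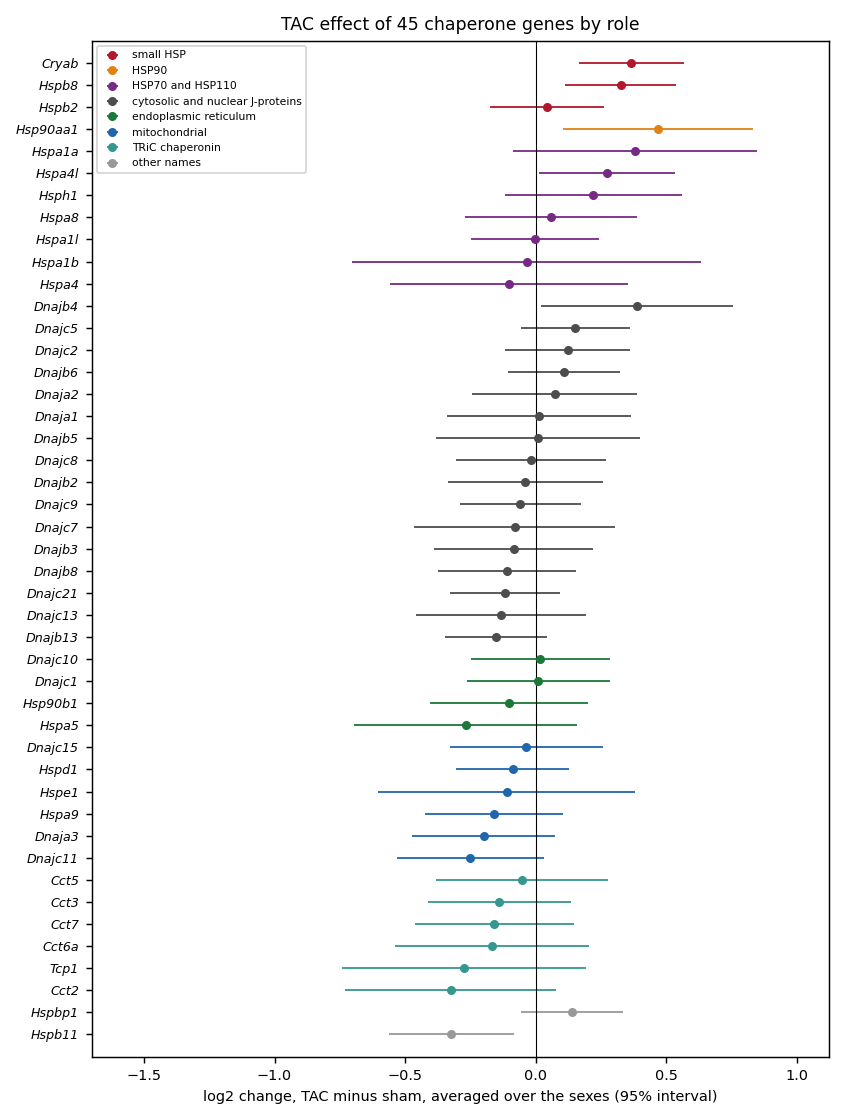
Log2 change of intensity, TAC minus sham, averaged over the sexes, for the brightest tested probe set of 45 genes, grouped by role. Points are limma estimates and bars are 95% intervals without adjustment for the number of genes. Intervals of Cryab, Hspb8, Hsp90aa1, Hspa4l and Dnajb4 lie above 0 and that of Hspb11 below 0, while all 6 TRiC and all 6 mitochondrial estimates lie below 0 with intervals that include it.

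The stress-inducible pair Hspa1a and Hspa1b, the classical heat shock HSP70 genes, varied more between single hearts than between operations. Both lie on chromosome 17, and the 250 bases before their RefSeq starts (GRCm38.p6, minus strand) are shown because the copies are nearly the same there, with 247 of 250 positions shared (98.8%). Capitals mark a heat shock element of 2 units, GAA and TTC with any 2 bases between, which begins 104 bases before the start of each gene.
Hspa1a promoter, chr17:34972157-34972406, minus strand: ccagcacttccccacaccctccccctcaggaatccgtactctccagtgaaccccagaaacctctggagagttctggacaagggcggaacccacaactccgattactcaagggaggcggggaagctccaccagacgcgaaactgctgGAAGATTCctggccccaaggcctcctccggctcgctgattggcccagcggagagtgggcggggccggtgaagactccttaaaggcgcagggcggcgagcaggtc
Hspa1b promoter, chr17:34959239-34959488, minus strand: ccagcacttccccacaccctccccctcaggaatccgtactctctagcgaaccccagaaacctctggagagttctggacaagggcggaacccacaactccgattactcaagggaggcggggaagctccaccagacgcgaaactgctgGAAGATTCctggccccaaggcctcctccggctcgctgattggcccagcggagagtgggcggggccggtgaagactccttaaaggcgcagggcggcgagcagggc

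The Hspa1a probe set gave 17.4, 27.9 and 20.2 in female sham hearts. In male sham hearts it gave 24.9, 46.9, 20.3, 19.3, 14.5 and 16.7 in the order of their numbers 4 to 9. Female TAC hearts had 4.06, 44.3 and 35.5 and male TAC hearts 21.5, 41.3 and 27.0. The single highest value belonged to a sham heart and the lowest to a TAC heart, so the groups overlapped fully. The log2 change was 0.38 ± 0.22 (SE; unadjusted p = 0.105, adjusted p = 0.755 in limma), with 5 arrays below the floor. The size depends on the floor: the change was 0.09 with a floor of 3.09 (adjusted p = 0.978 in limma) and 0.15 with an offset of 20 (adjusted p = 0.907 in limma). Leaving out 1 array gave 0.25 (without male TAC 5) to 0.54 (without female TAC 1). Without female TAC 1 and male sham 5 together, an alternative chosen after the values were seen, it was 0.64 ± 0.15 (SE; adjusted p = 0.134 in limma).

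The Hspa1b probe set was below 20 on 13 of 15 arrays. Male sham 5 gave 106, and male TAC 5 gave 39.8. On the other male sham hearts it was between 6.49 and 12.4, and on the female sham hearts it was at most 8.94. Since 1 sham heart and 1 TAC heart carry all of the signal above the floor, its estimate of -0.04 ± 0.32 (SE) is not a measured change, although it is plotted and counted among the 3 lower genes of its group. As the genes are near-identical copies, probes of either set may bind transcripts of the other.

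**Figure D3:**
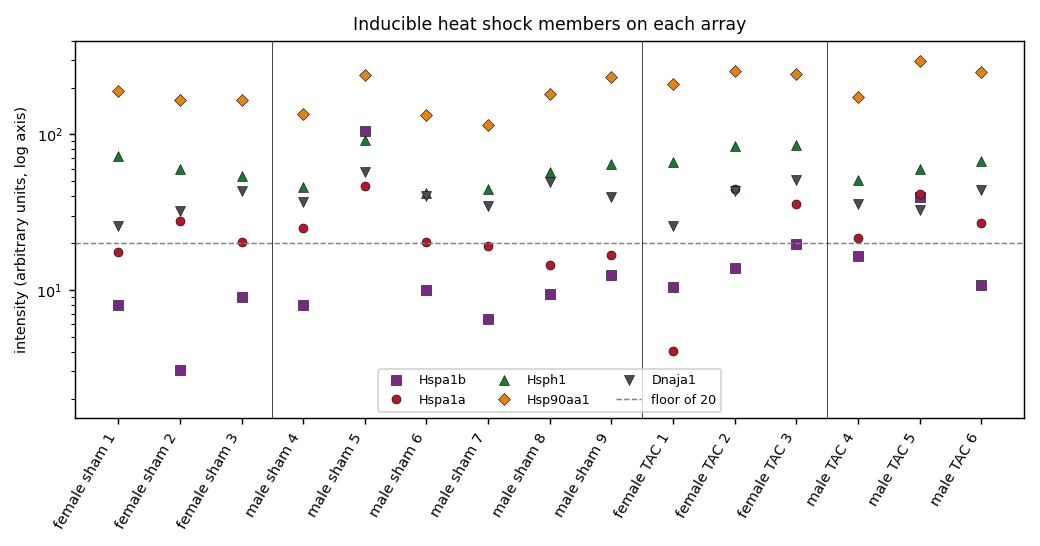
Intensity in arbitrary units on a log axis of 5 inducible members on each of the 15 arrays, with thin vertical lines between the 4 groups. The dashed line is the floor of 20. Hspa1b (squares) is above the floor on male sham 5 and male TAC 5, at 106 and 39.8, and Hspa1a (circles) falls to 4.06 on female TAC 1.

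Whether other heat shock members, most of them stress-inducible but with the constitutive Hspa8 among them, followed Hspa1a from heart to heart was examined over 15 arrays after each group mean had been subtracted. Of 9 members compared, none passed after Benjamini-Hochberg adjustment of the permutation p-values, by Pearson or Spearman. The permutations moved the values freely across groups after the group means were subtracted. This can make all permutation p-values given here too small, also where members pass. Hsph1 had a Pearson r of 0.63 (permutation p = 0.0124, adjusted p = 0.0798) and a Spearman rho of 0.40 (permutation p = 0.139, adjusted p = 0.209). Its r was 0.35 without male sham 5 and male TAC 5, the 2 arrays farthest from the median of Hspa1a. It was 0.27 without male sham 5 alone and 0.68 without male TAC 5 alone, so the relation rests on male sham 5. Hspa4 had an r of 0.61 (permutation p = 0.0177, adjusted p = 0.0798) and a rho of 0.54 (permutation p = 0.0423, adjusted p = 0.174), and r was 0.65 without them. It was 0.39 without female TAC 1, so that 1 array carries much of it. Hsp90aa1 had an r of 0.56 (permutation p = 0.0291, adjusted p = 0.0874), a rho of 0.47 (permutation p = 0.0774, adjusted p = 0.174) and an r of 0.26 without them. Cryab had an r of 0.49 (permutation p = 0.0631, adjusted p = 0.114) and a rho of 0.65 (permutation p = 0.0115, adjusted p = 0.104), with 0.57 without them. Dnaja1 had an r of 0.50, Hspd1 0.38, and Hspb8, Hspe1 and Hspa8 had 0.21, 0.21 and 0.15. With the floor at 3.09 in place of 20, Hspa4 (r = 0.81, permutation adjusted p = 0.00855) and Dnaja1 (r = 0.63, permutation adjusted p = 0.0450) passed. Without male sham 9, 4 members passed, and without male TAC 5, 2 did. Other settings lowered the values: with median centring r was 0.13 for Cryab, 0.08 for Hspd1 and -0.13 for Hspb8, with quantile normalization it was 0.18 for Cryab, and no member passed in either. Without female TAC 1, Dnaja1 had an r of 0.27. On female TAC 1, where Hspa1a was at 4.06, Hspa4 was at 35.0 and lower than on any other array.

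Among all tested probe sets with 1 symbol, the 5 most like Hspa1a over the 15 arrays after subtraction of group means were those of Ncbp1 (r = 0.89), Cep89 (0.87), B230308N11Rik (0.85), Ssx2ip (0.85) and Vps37c (0.85). None is a member. The most like member was the dimmer probe set of Dnajc8 (r = 0.77), at rank 23 of 6621, and Hspa1b followed at rank 32 (r = 0.77). Hspa1b was above the floor on male sham 5 and male TAC 5 alone, so its r rests on those arrays. These ranks describe the arrays and carry no test.

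J-proteins of the cytosol and nucleus formed the largest group, with 16 of 19 genes tested, 7 higher and 9 lower, and a median log2 change of -0.03. The split turned to 10 higher and 6 lower with median centring (median 0.03) and without female TAC 1 (median 0.04). The medians of all tested probe sets were 0.02 and 0.0013 in these settings, against -0.03 in the main fit. Dnajb4, which presents clients to HSP70, was at 29.7, 25.5 and 32.5 in female sham hearts and ran from 16.7 through 29.4 to 38.2 in male sham hearts. It was at 27.2, 43.5 and 46.5 in female and 26.6, 45.5 and 42.4 in male TAC hearts. In each sex 2 TAC hearts stood above all sham hearts and 1 stood among them. The change was 0.39 ± 0.17 (SE; unadjusted p = 0.0396, adjusted p = 0.611 in limma). Dnajb6, which keeps aggregation-prone proteins soluble in muscle, had 0.11 ± 0.10, and Dnaja1 and Dnaja2, farnesylated partners of HSP70, had 0.01 ± 0.17 and 0.07 ± 0.15 (SE). Dnajb13, known from sperm flagella, had -0.15 ± 0.09 (SE). The other tested J-proteins of this group lay between -0.13 and 0.15, Dnajc13 of endosomes being the lowest and Dnajc5, the cysteine string protein of secretory vesicles, the highest.

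In the endoplasmic reticulum group 4 of 7 genes were tested, 2 higher and 2 lower. Hspa5 (BiP), the HSP70 of that compartment and a target of the unfolded protein response, ran from 76.7 through 113 to 148 in sham and from 57.6 through 93.3 to 147 in TAC hearts. The ranges covered each other, and the change was -0.27 ± 0.20 (SE; unadjusted p = 0.204, adjusted p = 0.817 in limma). It was -0.13 without female TAC 1, -0.12 without male TAC 4 and -0.43 without male TAC 6. Hsp90b1 (GRP94), its HSP90 partner, had -0.10 ± 0.14, and the J-proteins Dnajc10 and Dnajc1 had 0.02 ± 0.13 and 0.01 ± 0.13 (SE). Of 12 other tested genes of folding and stress in that compartment 4 were higher, with a median of -0.05 and 0 called by limma, and none had an unadjusted p under 0.05. The 2 of smallest p were Pdia6 (-0.19 ± 0.13) and Ero1a (-0.16 ± 0.11, SE), both of disulfide formation.

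All 6 mitochondrial genes were tested and all 6 estimates were below 0, with a median of -0.14, where the median of all tested probe sets was -0.03. Dnajc11, a J-protein of the mitochondrial outer membrane, ran from 34.4 through 43.7 to 51.6 in sham and from 27.7 through 35.8 to 53.5 in TAC hearts. Its change was -0.25 ± 0.13 (SE; unadjusted p = 0.0777, adjusted p = 0.724 in limma). Dnaja3, the J-protein of the matrix, had -0.20 ± 0.13, and Hspa9 (mortalin), the HSP70 of protein import, had -0.16 ± 0.12 (SE). Hspd1 (HSP60) and Hspe1 (HSP10), which form the mitochondrial chaperonin, had -0.09 ± 0.10 and -0.11 ± 0.23 (SE). Hspd1 ran from 287 through 344 to 415 in sham and from 293 through 342 to 364 in TAC hearts, which is full overlap. With each array centred on its median, or with quantile normalization, 1 of the 6 estimates was above 0. The median was -0.08 with median centring, where that of all tested probe sets was 0.02. It was -0.07 without female TAC 1, where that of all tested probe sets was 0.0013.

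Hspd1 and Hspe1 lie head to head and their RefSeq models overlap, and the same bases lie before a listed start of each. Their shared sequence holds overlapping heat shock elements of 3 units, which is why it is shown, read from each gene's own strand (GRCm38.p6). Capitals mark 1 match to the motif in each window. Dnajb6 is the third member with such an element.
Hspd1, chr1:55088050-55088079, minus strand: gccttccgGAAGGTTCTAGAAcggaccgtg
Hspe1, chr1:55088051-55088080, plus strand: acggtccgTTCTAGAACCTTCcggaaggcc
Dnajb6, chr5:29735844-29735873, plus strand: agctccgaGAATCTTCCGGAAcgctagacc

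Alternating units GAA and TTC, each set apart by any 2 bases (NN) and starting with either, were searched as runs of 2 and of 3 units on both strands of the 250 bases before each start. Each 3-unit motif contains both 2-unit motifs. RefSeq promoters were found for 48 of the 57 genes. Of these, 3 (6.25%) held the 3-unit motif, against 0.514% of all 27025 genes in the table, and 12 (25%) held a 2-unit motif, against 14.5%. Hspd1 and Hspe1 are counted separately in these shares though their motifs are the same bases. So are Hspa1a and Hspa1b, whose promoters are near-identical copies. Among the 6 genes of unadjusted p under 0.05 in the TAC comparison, Dnajb4 held a 2-unit motif, while Hspb8, Hspa4l and Hspb11 held none in this window and Cryab and Hsp90aa1 are not matched in the table. A match is a description of the sequence only.

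TRiC, the chaperonin of actin and tubulin, had 6 of 9 genes tested, and all 6 estimates were below 0, with a median of -0.16. Cct2 was at 38.2, 57.0 and 42.7 in female sham hearts and ran from 29.5 through 45.7 to 60.9 in male sham hearts. It was at 12.5, 31.9 and 53.1 in female and 42.2, 36.0 and 40.8 in male TAC hearts. Its change was -0.33 ± 0.19 (SE; unadjusted p = 0.108, adjusted p = 0.755 in limma). It was -0.15 without female TAC 1 and -0.50 without female TAC 3. Tcp1 had -0.28 ± 0.22 and was below 20 on 4 arrays, with values from 0 to 54.2 in sham hearts. Its change was -0.14 with the floor of 3.09 or without male TAC 5, and -0.43 without male TAC 6. Cct6a had -0.17 ± 0.18, Cct7 -0.16 ± 0.14, Cct3 -0.14 ± 0.13 and Cct5 -0.05 ± 0.16 (SE). The direction was not firm: 2 other probe sets of Cct3 had 0.38 ± 0.19 and 0.27 ± 0.15, and without female TAC 1 the TRiC genes were 2 higher and 4 lower with a median of -0.07. With median centring 1 of the 6 was above 0 and the median was -0.10. The median of all tested probe sets was -0.03 in the main fit, 0.02 with median centring and 0.0013 without female TAC 1. Of 7 tested genes of prefoldin, which hands clients to TRiC, and of the tubulin cofactors, 3 were higher and 0 were called by limma. Pfdn6 and Tbcb were the 2 with an unadjusted p under 0.05, and both lay near the floor of 20. Pfdn6 ran from 14.6 through 27.9 to 35.9 in sham and from 16.8 through 18.8 to 20.4 in TAC hearts. Its TAC median lay under the floor, so the size of its estimate depends on the floor and is not given. Tbcb ran from 10.2 through 23.2 to 26.1 in sham and from 16.0 through 30.1 to 40.1 in TAC hearts, with 0.35 ± 0.13 (SE; adjusted p = 0.478 in limma) on floored values.

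**Figure D4:**
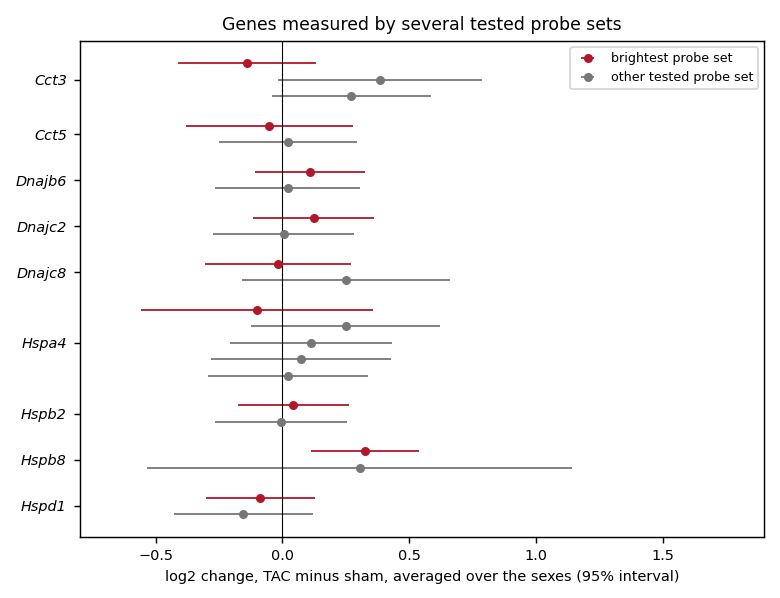
Log2 change of intensity, TAC minus sham, averaged over the sexes, for the 9 genes with several tested probe sets. Points are limma estimates and bars are 95% intervals, in red for the brightest probe set and in grey for the others. In 4 genes all probe sets have estimates of the same sign and in 5 they do not, among them Cct3 and Hspa4.

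The pattern also takes Hspb11 and Hspbp1, which differ in function from the families they are named after. Hspb11 encodes a subunit of the intraflagellar transport complex of cilia. It was at 77.8, 51.4 and 58.2 in female sham hearts and ran from 47.4 through 55.6 to 59.5 in male sham hearts. It was at 44.5, 57.8 and 39.4 in female and 46.9, 44.8 and 46.4 in male TAC hearts. In all but female TAC 2 it was below the lowest sham heart. The log2 change was -0.32 ± 0.11 (SE; unadjusted p = 0.0113, adjusted p = 0.441 in limma). Hspbp1, an exchange factor of HSP70, had 0.14 ± 0.09 (SE).

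Among other genes of the system, 27 tested co-chaperones and related proteins were split evenly, 13 higher and 14 lower, with a median of -0.05 and 0 called by limma. The list also held the heat shock factors Hsf1 and Hsf2, for which no value was tested. Fkbp4, an immunophilin that works with HSP90 on steroid receptors, ran from 84.3 through 89.9 to 162 in sham and from 46.1 through 74.5 to 114 in TAC hearts. Its change was -0.65 ± 0.19 (SE; unadjusted p = 0.00358, adjusted p = 0.274 in limma). Bag3, the partner of Hspb8, ran from 177 through 214 to 278 in sham and from 199 through 273 to 339 in TAC hearts, with 0.29 ± 0.13 (SE; unadjusted p = 0.0367, adjusted p = 0.607 in limma). They were the 2 with an unadjusted p under 0.05.

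Over the 45 genes 18 estimates were above 0 and 27 below, with a median of -0.04 against -0.03 for all tested probe sets. The split was 24 above and 21 below with median centring, with a median of 0.0067 against 0.02. It was 25 and 20 without female TAC 1, with a median of 0.03 against 0.0013. The 95% interval of 37 of the 45 genes lay within a 1.5-fold change in either direction. By probe set this was true of 46 of 58 members (79.3%) and of 86.8% of all tested probe sets. Within groups the median SD on the log2 scale was 0.28 for member probe sets and 0.24 for all. Markers of fibroblasts were higher in TAC hearts: their summed intensity was 1142 to 1614 in sham and 1635 to 2617 in TAC hearts, 7 of 8 were higher, and limma called Postn (1.45 ± 0.19, SE; adjusted p = 0.00109). Their part in the values of the chaperones was not tested. Summed markers of endothelial cells (389 to 566 in sham, 395 to 628 in TAC hearts), leukocytes (305 to 571 and 287 to 519), smooth muscle (195 to 270 and 119 to 255), red blood cells (821 to 1475 and 769 to 1479) and fat cells (167 to 223 and 144 to 209) overlapped between the operations, and limma called none of these genes. Immediate early genes, which respond within minutes to handling, summed to 1096 to 1290 in sham hearts and 640 to 1208 in TAC hearts. Male sham 5 had 1284 and the lowest value, 640, was that of female TAC 1. Btg2 gave the largest part of this sum, at 489 to 779 in sham and 165 to 588 in TAC hearts. Female TAC 1 also had the lowest sum of the TAC hearts for heart muscle, fibroblast, leukocyte and smooth muscle markers. For endothelial, red blood and fat cell markers it did not.

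The effect was then read in each sex. In females limma called 0 members, where it called 6 of 7453 (0.0805%), and 2 members had an unadjusted p under 0.05 (3.45%, against 4.59% of all). Changes above 0 were found in 25 members, and in 40.6% of all. The 2 were Cryab, higher (1.61% of all) with 0.38 ± 0.14, and Hspb11, lower (2.98% of all) with -0.40 ± 0.17 (SE; adjusted p = 0.930 and 1.00 in limma), and Hspb8 followed with 0.32 ± 0.15 (SE). Without female TAC 1 the count was 7 of 59 members, where 333 of 7453 probe sets met the rule. With the replicate number as a block, limma called 0 members and 5 had an unadjusted p under 0.05, where 423 of 7453 probe sets did. In males limma called 0 members, where it called 10 of 7453 (0.134%), and 5 members had an unadjusted p under 0.05 (8.62%, against 6.20% of all). Of these, 4 were higher (2.98% of all) and 1 lower (3.22% of all), and changes above 0 were found in 31 members and in 47.2% of all. They were Cryab with 0.35 ± 0.12, Hspb8 with 0.33 ± 0.13, Dnajc5 with 0.32 ± 0.13, Hsp90aa1 with 0.51 ± 0.23 and Dnajc11 with -0.40 ± 0.17 (SE; adjusted p from 0.605 to 0.744 in limma). Without male TAC 5 the count was 2 members, where 335 of 7453 probe sets met the rule. The estimates of Cryab and Hspb8 were thus similar in the 2 sexes. Both genes stood out by their p in the mean of these same estimates, so the likeness is no separate support. The sign was the same in both sexes for 29 of 45 member genes (64.4%), 11 above and 18 below 0, and for 58.1% of all tested probe sets. The genes below 0 include Hspa1b, whose female values were all under the floor. Its female estimate was 0 but for rounding, so it has no sign in females. Other probe sets under the floor in 1 sex may be counted in the same way.

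**Figure D5:**
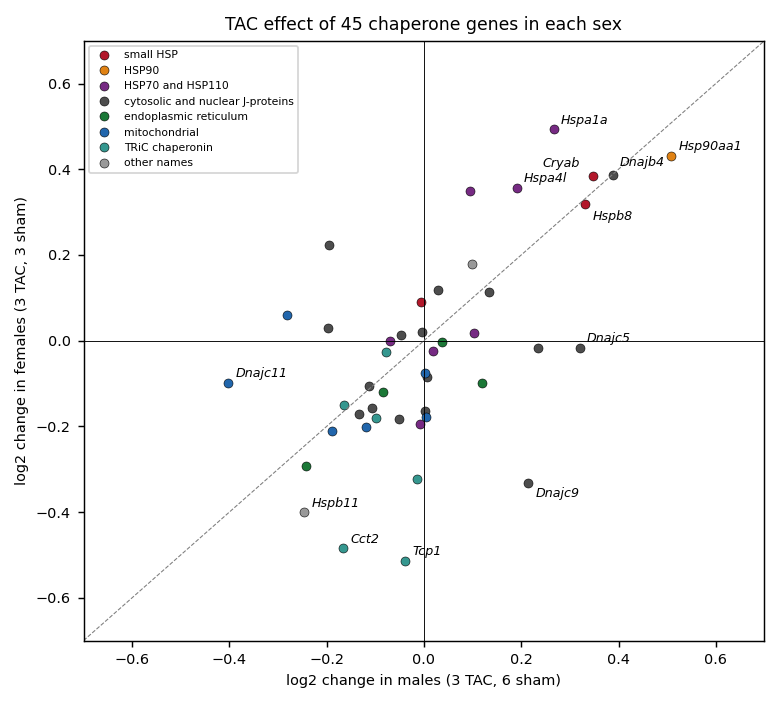
Log2 change of intensity with TAC in females (vertical axis, 3 TAC and 3 sham hearts) against males (horizontal axis, 3 TAC and 6 sham hearts) for 45 member genes, coloured by role. The dashed line marks equal change. Cryab, Hspb8, Dnajb4 and Hsp90aa1 lie close to it, while Dnajc9 is below 0 in females and above 0 in males.

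The interaction of operation and sex was then fitted. limma called 0 members and 0 of 7453 probe sets (0.00%), and 1 member had an unadjusted p under 0.05 (1.72%, against 2.56% of all). It was lower in females (1.46% of all), none was higher (1.10% of all), and 25 members had a difference above 0 against 44.8% of all. The 1 member was Dnajc9, a J-protein that handles histones, with -0.55 ± 0.22 (female minus male, SE; unadjusted p = 0.0236, adjusted p = 1.00 in limma). It was at 184, 140 and 192 in female sham and 126, 132 and 149 in female TAC hearts. In male sham hearts it ran from 129 through 153 to 195, and male TAC hearts had 197, 174 and 167. Dnajc5 had -0.34 ± 0.20 and Dnaja1 0.42 ± 0.33 (SE). For Cryab the difference was 0.04 with a 95% interval from -0.37 to 0.44, and for Hspb8 it was -0.01 with an interval from -0.44 to 0.41, so that differences of that size cannot be seen with these arrays.

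Female and male sham hearts were compared last. limma called 0 members and 0 probe sets in all (0.00%), and 1 member had an unadjusted p under 0.05 (1.72%, against 4.71% of all, 3.31% higher and 1.40% lower in females). It was the dimmest tested probe set of Hspa4, higher with 0.56 ± 0.22 (female minus male, SE; adjusted p = 0.974 in limma). It was below 20 on 3 arrays, among them male sham 6 (13.4) and male sham 7 (16.7). The other tested Hspa4 probe sets, brightest first, had means of 85.0, 48.2, 42.6 and 44.4 in female sham hearts. In male sham hearts they had 91.8, 51.2, 36.2 and 35.6, so their directions differed. Of the 58 member probe sets 43 were higher in females (74.1%), and 60.9% of all tested probe sets were. The genes of smallest p by their brightest probe set were Cct7 with 0.38 ± 0.19, Dnajb3, a J-protein known from testis, with -0.37 ± 0.19, and Dnajb6 with 0.23 ± 0.13 (SE). All 6 tested TRiC genes had higher estimates in female sham hearts, with a median of 0.08 against 0.05 for all tested probe sets. So did all 4 tested endoplasmic reticulum genes (median 0.16) and all 3 tested small heat shock proteins (median 0.09). Of the 45 member genes 33 were higher and 12 lower, so the direction is not particular to TRiC.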

How the data were processed

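The deposited values are probe-set intensities of 15 arrays. How the authors corrected background and scaled these intensities, and with which software, is not stated in the sources used here. Without 66 array controls there were 12422 probe sets of 12488. The level of the arrays was kept. Probe sets were named by the platform annotation, and symbols were checked by Entrez number against RefSeq (GRCm38.p6). A linear model with 1 mean for each of 4 groups was fitted to all tested probe sets with limma 3.58.1 in R 4.3.3 (lmFit, eBayes), and Benjamini-Hochberg adjustment ran over 7453 probe sets, with calls at 0.05. Flooring alters the estimates of dim genes and can enlarge or reduce them. Precision is limited by the number of arrays. Correlation tests were two-sided with 100000 permutations. The method was tested on simulated data. The labels give no batch. Deviations of same-numbered sham and TAC arrays from their group means correlated at 0.24, 0.27 and 0.12 in females. In males the correlations were 0.06, -0.08 and 0.01. Differently numbered arrays were not compared, so these values cannot show whether the numbers pair the hearts. The labels state no pairing. Promoter sequences are those of RefSeq.

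Members, roles and gene lists were chosen with earlier results of these data known. Named genes were Hspa1a and Hspa1b, in each role group the brightest gene and the 2 of smallest p, the 3 of smallest p in each contrast, and in each other list the 2 of smallest p. Alternatives were an offset of 20, a floor of 3.09 (the 10th percentile of intensities), centring on array medians, quantile normalization, no filter, the top 40%, trended and robust eBayes, array weights, only the groups compared (for the main comparison all sham against all TAC without sex), a block for the replicate number, leaving out each array, and the brightest probe set of each gene. Leaving out female TAC 1 and male sham 5 together was added after seeing the data.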

Additional observations from a re-analysis of the deposited data

Results flagged for a closer look

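Of 25 named members, 3 had a male sham array whose gap to the nearest other array passed Dixon's 95% critical value for 6 samples on the log2 scale of values floored at 20. Chance alone gives this in about 1 in 20 groups. Hspa1a was 46.9 on male sham 5 and between 14.5 and 24.9 on the other male sham arrays. Its gap was 0.74 of the range on floored values but 0.54 without the floor, which does not pass. Hspa1b was 106 on the same array and between 6.49 and 12.4 on the others, all of them below the floor, so that its gap was the whole range by construction. Without the floor it was 0.77 of the range. Dnajc5 was 25.1 on male sham 7 and between 32.7 and 35.5 on the others.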

How the results depend on the processing

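The count of members called was 0 in the averaged effect, in females, in males, in the difference between the sexes and in sham hearts. It stayed 0 when settings were changed or 1 array was left out, except that array weights called 1 member in the averaged effect, Cryab (0.41 ± 0.09, SE; adjusted p = 0.0275 in limma). Over the other alternatives and the runs without 1 array the adjusted p of Cryab was between 0.0575 and 0.464, and its log2 change lay between 0.31 and 0.43. For Hspb8 the change lay between 0.26 and 0.38 and the adjusted p between 0.130 and 0.638. Genes that no setting called were counted as keeping their result. The number of members related to Hspa1a was 0, but 2 with the lower floor, 1 with the offset, and 0 to 4 without 1 array, with 4 without male sham 9 and 2 without male TAC 5. Over all probe sets 24 were called in the averaged effect, against 45 with quantile normalization or median centring, 10 with the lower floor, 13 without the filter, 68 with array weights and 8 with the replicate block; the cause was not tested. Leaving out 1 array gave 12 to 29, with 12 without male TAC 5, 14 without any 1 of the female sham arrays, and 15 without male sham 6 or female TAC 2. The range was 2 to 8 in females, where 6 were called, and 3 to 12 in males, where 10 were.

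With the replicate number as a block, 0 members were called in each contrast that could be fitted, which leaves out the sex difference in sham hearts. The numbers were not taken to pair the samples in either sex, and the block changed no call of a member. The difference between the sexes could not be fitted with only the groups compared. Dim members limit the reach: 23 probe sets of 81 could not be tested, and 13 of the 58 tested were below the floor on at least 1 array.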
